A study of Mus musculus with 6 samples.

Results

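Integrins and laminins form the receptors and the sheet by which an epithelial cell holds on to its basement membrane. All genes with an integrin alpha or beta chain symbol and all laminin chain genes were taken by symbol, whatever the level of each. The family itself was chosen with earlier results of these data known. That gave 38 genes of 56953 in the table, of which 52029 carry a symbol. They comprise 27 integrin chains (18 alpha and 9 beta) and 11 laminin chains (5 alpha, 3 beta and 3 gamma). Itgb3 and Lamb3 were given as the genes that mark the group, and both are among the 38.

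RNA was measured in 6 cell lines of mouse pancreatic ductal adenocarcinoma, 1 poly(A) library from each: KPC850, KPC630, KPC490, KPC469, KPC180 and KPC142. All are labelled as cells derived from KPC mice and give KPC as the strain. The labels list no alleles, animal, age, treatment or growth condition. The labels put no line in a class, so each line stands alone and no group comparison was made.

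Every value below is therefore from 1 library, with no replicate check and no p-value. Levels are read counts scaled to the normalised size of each library (CPM, counts per 1000000), and ratios between lines carry 95% exact conditional binomial intervals that cover counting error only. Spread between cultures of the same line is not known, and fewer cells that express a gene cannot be told apart from less RNA per cell. Library totals ran from 16471558 to 18701274 counts, so 3 counts corresponded to 0.159 to 0.182 CPM. By mean rank correlation with the other libraries, KPC469 stood farthest apart (0.918), then KPC142 (0.928), and KPC630 and KPC490 were nearest (both 0.943). Keratins of ductal epithelium were detected throughout, with Krt8 at 842.9 to 4177 CPM and Krt18 at 543.0 to 2315 CPM, each lowest in KPC469 and highest in KPC850. Epcam, another epithelial marker, ran only from 0.243 to 10.5 CPM. Leukocyte markers, 7 of 7, stayed under 1 CPM in every line, with 2 at 0 counts and a summed level of 0.290 to 0.961 CPM. Summed fibroblast markers ran from 0.661 to 7.24 CPM, with Dcn and Lum at 0. The highest sum was in KPC469, where Pdgfrb had 56 counts against 0 or 1 in the other lines. Summed endothelial markers ran from 0.163 to 2.66 CPM.

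An integrin is a dimer of 1 alpha and 1 beta chain that spans the membrane, binds matrix outside and couples to actin through talin and kindlin inside. The alpha chain largely sets which ligand is bound, and a beta chain can serve many alpha chains. A laminin is a trimer of 1 alpha, 1 beta and 1 gamma chain, assembled inside the cell and secreted into the basement membrane. In hemidesmosomes, where an epithelium forms them, laminin-332 and integrin α6β4 anchor the cells, while laminin-511 and laminin-521 are the broader epithelial forms.

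Of the 38 genes, 22 had a mean of at least 1 CPM over the lines. The other 16 were below it, 2 of them (Itgad and Lama1) with 0 counts in all libraries. A gene was called variable where log2 CPM, with a prior count of 2, spanned at least 2 units over the lines, a 4-fold range. Among all 12633 genes with a mean of at least 1 CPM, 2619 (20.7%) met this, and 12 of the 22 did. The median range was 2.11 log2 units for the 22 genes and 1.02 for all 12633. By chain type, 6 of 9 alpha chains, 3 of 6 beta chains and 3 of 7 laminin chains were variable. Without KPC469 the count was 8 of 22, against 16.5% of genes with a mean of at least 1 CPM over the other lines. Nearest above the threshold was Lamb1, whose highest line was 4.29 times the lowest, and nearest below was Itgb4, at 3.62 times.

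**Figure D1:**
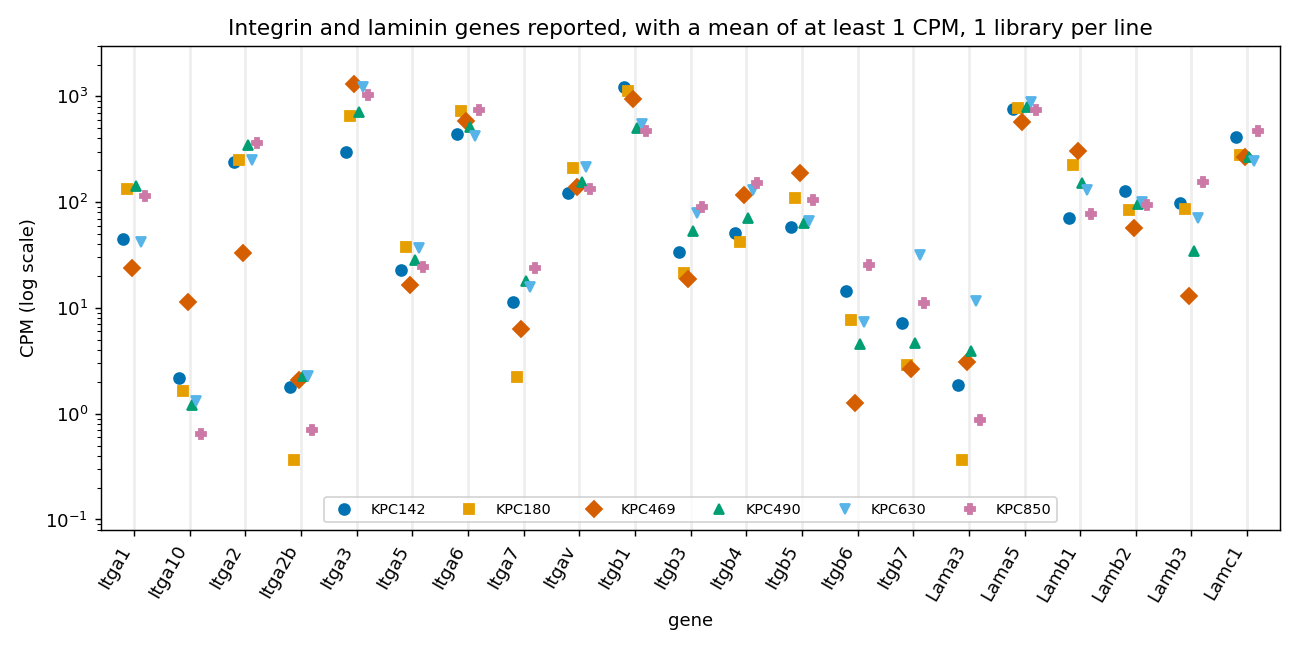
CPM on a log scale (vertical axis) of the integrin and laminin genes described here with a mean of at least 1 CPM (horizontal axis); each symbol is 1 line, with 1 library and no error bar. KPC469 holds the lowest point of Itga2, Itgb6 and Lamb3 and the highest of Itga3, Itga10 and Lamb1.

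The extremes were not spread evenly over the lines. KPC469 held the lowest value of 10 of the 22 genes, against 19.7% of all genes tested. These included Itga1, Itga2, Itga5, Itgb3, Itgb6, Itgb7, Lama5, Lamb2 and Lamb3. KPC469 also held the highest value of 4 (Itga3, Itga10, Itgb5 and Lamb1), against 21.3% of all genes. The highest value of 8 genes was in KPC850, against 14.7% of all genes: Itga2, Itga6, Itga7, Itgb3, Itgb4, Itgb6, Lamb3 and Lamc1. KPC630 was highest for 5 (background 13.8%), KPC142 for 3 (19.3%), and KPC180 and KPC490 for 1 each (15.9% and 15.0%). As the lowest line, KPC142 and KPC180 had 4 genes each (20.3% and 16.5%), KPC630 and KPC850 had 2 each (14.4% and 16.2%) and KPC490 had 0 (12.1%). Of the 7 ductal epithelium markers, Krt7, Krt8 and Krt18 were also lowest in KPC469, while Krt19 and Epcam were lowest in KPC180, Cdh1 in KPC490 and Sox9 in KPC142. Sox9 was highest in KPC469, at 43.4 CPM. The part of these markers in the integrin and laminin values was not tested.

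The promoters below are shown because Lamb3 and Itgb6 were both lowest in KPC469 and highest in KPC850, while Lama5 had the narrowest range of the 22 genes and Itgb5 was highest in KPC469. Each is the 250 bases before an annotated start, from RefSeq on GRCm38.p6, written 5′ to 3′ on the gene's strand, with GGGCGG or its reverse complement CCGCCC (the core of sites bound by Sp and KLF factors) in capitals. They lie at chr1:193301744-193301993 on the plus strand for the upstream start of Lamb3, chr2:60722604-60722853 on the minus strand for Itgb6, chr2:180225860-180226109 on the minus strand for Lama5 and chr16:33829415-33829664 on the plus strand for Itgb5.
Lamb3: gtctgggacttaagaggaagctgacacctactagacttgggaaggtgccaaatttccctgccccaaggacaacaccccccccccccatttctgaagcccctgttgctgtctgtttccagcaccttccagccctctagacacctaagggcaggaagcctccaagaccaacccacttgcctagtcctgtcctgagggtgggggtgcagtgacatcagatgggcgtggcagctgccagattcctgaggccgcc
Itgb6: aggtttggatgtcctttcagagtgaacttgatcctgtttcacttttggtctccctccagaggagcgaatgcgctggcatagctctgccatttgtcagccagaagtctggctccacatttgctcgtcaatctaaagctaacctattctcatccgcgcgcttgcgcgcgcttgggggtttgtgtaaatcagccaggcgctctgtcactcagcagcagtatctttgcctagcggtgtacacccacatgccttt
Lama5: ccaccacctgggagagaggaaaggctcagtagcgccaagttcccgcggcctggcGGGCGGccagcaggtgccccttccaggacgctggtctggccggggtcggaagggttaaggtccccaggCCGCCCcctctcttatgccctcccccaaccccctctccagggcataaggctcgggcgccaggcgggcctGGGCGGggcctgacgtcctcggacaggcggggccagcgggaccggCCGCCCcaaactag
Itgb5: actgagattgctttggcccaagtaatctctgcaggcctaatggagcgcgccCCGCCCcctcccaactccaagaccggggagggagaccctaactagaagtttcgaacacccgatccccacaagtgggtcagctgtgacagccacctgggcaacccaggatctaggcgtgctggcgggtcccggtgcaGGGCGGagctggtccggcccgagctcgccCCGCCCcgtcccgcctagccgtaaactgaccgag

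The Lama5 promoter holds 4 such matches and the Itgb5 promoter 3, and neither the Lamb3 nor the Itgb6 sequence holds any. These 4 were picked after their levels were seen, and other members were mixed. The Lamb1 promoter, of a gene highest in KPC469, holds 2. Those of Itga5 and Lamb2, both lowest in KPC469, hold 2 and 0. The Itga2 promoter, of a gene lowest in KPC469 and highest in KPC850 like Lamb3 and Itgb6, holds 1 in the 300 bases searched. That match lies past the start, and the stretch before the start, the part printed for the other genes, holds 0. A link between matches and levels was not tested. Over the 300 bases of each RefSeq entry, G and C made up 72.7% for Lama5, 65.7% for Itgb5, 59.3% for Lamb3 and 50.3% for Itgb6, against a median of 52.7% over all promoters. The downstream starts of Lamb3 and Itgb6, not printed here, had 59.3% and 38.3% and also held 0 matches. RefSeq promoters were matched for 24 of the 38 genes. They gave 27 sequences in all, since 3 genes (Lamb3, Itgb6 and Itga3) have 2 starts each. On either strand of the 300 bases, GGGCGG occurred in 12 of the 27 and in 35.7% of all 32851 promoters. TGANTCA, the site of AP-1, occurred in 3 of 27 against 7.81%, and GGAATG, the site of TEAD factors, in 3 of 27 against 14.7%. No match of one motif overlapped a match of another in the 27 sequences, and a match only describes the letters in the window.

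Lama3 and Lamb3 supply the alpha and beta chains of laminin-332. Lamb3, the beta chain, was at 156.4 CPM in KPC850, 98.5 in KPC142, 86.0 in KPC180, 71.1 in KPC630, 34.3 in KPC490 and 13.0 in KPC469. KPC469 stood lowest and KPC850 highest, at 12.01 times the level of KPC469 (10.5 to 13.8).

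Lama3, the alpha chain without which this trimer cannot form, was scarce and ordered otherwise. Its level was 11.5 CPM in KPC630, 3.95 in KPC490, 3.05 in KPC469, 1.86 in KPC142, 0.874 in KPC850 and 0.364 in KPC180. These rest on 6 counts in KPC180 and 217 in KPC630, a ratio of 31.6 (14.3 to 87.2). KPC850, highest for Lamb3, was second lowest for Lama3. Per kilobase of the longest coding transcript, the scale on which levels of different genes can be set side by side, Lamb3 exceeded Lama3 by 9.25 times in KPC469 and 511.1 times in KPC180. Lama3 was below Lamb3 in all 6 lines, at 0.0346 to 1.09 CPM per kb. On coding length Lamb3 exceeded Lama3 by 12.2 to 672.4 times. Poly(A) libraries give RNA levels, and protein was not analysed here.

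Over the 6 lines Lama3 and Lamb3 had a Pearson r of -0.40 in log2 CPM (rho -0.60, n = 6). Without KPC180 and KPC630, the 2 lines farthest from the median of Lama3, it was -0.82 on only 4 lines. Distance in Lamb3 was not used, so KPC469, its lowest line, stayed in. Points on both axes come from the same libraries. Correlations were also computed for other chain pairs, and of these only Itga6 with Itgb4 is given below.

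The laminins of the broader epithelial form had all their chains. Lama5, the alpha chain of laminin-511 and laminin-521, was the steadiest gene of the family, at 883.6 CPM in KPC630, 785.4 in KPC490, 779.6 in KPC180, 767.3 in KPC142, 751.0 in KPC850 and 574.2 in KPC469. The highest line was 1.54 times the lowest (1.502 to 1.58). Per kb, Lama5 made up 98.6% to 99.9% of all laminin alpha chain RNA in the 6 lines.

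Lamb1 and Lamb2, the beta chains that join Lama5, ran in different orders. Lamb1 was at 301.6 CPM in KPC469, 225.7 in KPC180, 151.3 in KPC490, 129.7 in KPC630, 76.9 in KPC850 and 70.3 in KPC142. KPC142 and KPC850 were low and KPC469 was high, at 4.29 times KPC142 (4.03 to 4.58). Lamb2 was at 126.8 CPM in KPC142, 100.6 in KPC630, 95.1 in KPC490, 95.01 in KPC850, 85.1 in KPC180 and 57.1 in KPC469, highest in KPC142 and lowest in KPC469, a ratio of 2.22 (2.06 to 2.39). Lamb1 exceeded Lamb2 per kb by 5.14 times in KPC469, and was 0.539 times Lamb2 in KPC142.

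The beta chain make-up thus differed from line to line. Lamb3 made up 51.6% of laminin beta chain RNA per kb in KPC850 (exact Clopper-Pearson interval 50.3% to 52.9%) and 4.12% in KPC469 (3.62% to 4.66%), with a median of 25.6%. Lamb1 ran the other way, from 21.3% in KPC850 to 80.3% in KPC469. Lamb2 lay between 15.6% in KPC469 and 41.0% in KPC142. Lamb1 was thus the largest share in KPC469 and Lamb3 in KPC850, where it was 47.6% with no division by length.

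Lamc1, the gamma chain of most laminins, was at 467.1 CPM in KPC850, 409.7 in KPC142, 278.4 in KPC180, 264.6 in KPC490, 264.5 in KPC469 and 247.1 in KPC630, a ratio of 1.89 (1.82 to 1.96). KPC142 and KPC850 were high, and the other lines lay close together. The RNA of the scarcest chain per kb was taken as a ceiling on a trimer, and no trimer was measured. For laminin-511 it ran from 12.1 CPM per kb in KPC142 to 36.5 in KPC180, limited by Lamb1 in 4 lines and by Lamc1 in KPC180 and KPC469. On coding length Lamb1 was the scarcest in KPC180 and Lama5 in KPC469, and the range was 12.8 to 51.5. Laminin-521 ran from 10.1 in KPC469 to 22.5 in KPC142, limited by Lamb2 in all 6. Lama2, which serves muscle and nerve, and Lama4, which serves vessels, stayed at or below 0.163 and 0.243 CPM. Lamc3 did not exceed 0.781 CPM.

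**Figure D2:**
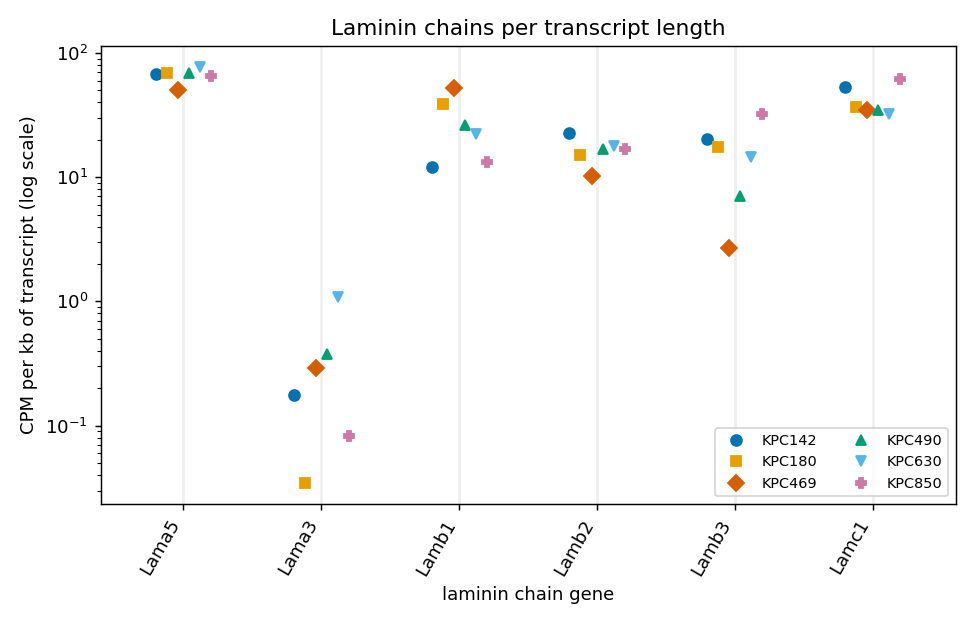
CPM per kb of transcript on a log scale (vertical axis) of 6 laminin chain genes (horizontal axis); each symbol is 1 line, with 1 library and no error bar. Lama3 lies between 0.0346 and 1.09 CPM per kb, below every other chain shown, and the points of Lamb1 and Lamb3 order KPC469 and KPC850 oppositely.

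Receptors for laminin were led by Itga3 and Itga6. Itga3, the alpha chain of α3β1, which binds laminin-332 and laminin-511, was at 1300 CPM in KPC469, 1238 in KPC630, 1022 in KPC850, 704.9 in KPC490, 646.7 in KPC180 and 298.7 in KPC142. KPC142 was lowest, and KPC469 was 4.35 times as high (4.22 to 4.49). Itga6, the alpha chain shared by α6β1 and α6β4, was at 748.4 CPM in KPC850, 734.3 in KPC180, 584.4 in KPC469, 511.9 in KPC490, 443.6 in KPC142 and 422.8 in KPC630. Its ratio was 1.77 (1.72 to 1.82), with KPC180 and KPC850 close together at the top. Per kb, Itga3 was 2.60 times Itga6 in KPC630 and 0.597 times Itga6 in KPC142.

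Itgb4, the long-tailed beta chain that pairs with Itga6 alone and anchors keratin in hemidesmosomes, was at 152.0 CPM in KPC850, 131.4 in KPC630, 116.1 in KPC469, 71.1 in KPC490, 51.3 in KPC142 and 42.0 in KPC180. KPC142 and KPC180 were low and KPC630 and KPC850 high, with a ratio of 3.62 (3.33 to 3.94). It was below Itga6 per kb in every line, by 4.64 times in KPC630 to 25.2 times in KPC180. Over the lines Itga6 and Itgb4 had r near 0 (0.0031, rho 0.086, n = 6). It was 0.17 on the 4 lines left without the 2 farthest from the median of Itga6.

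Other hemidesmosome genes were not uniformly present. Plec, plectin, ran from 836.7 to 1576 CPM, Dst, dystonin, from 395.0 to 761.1, and Cd151, a tetraspanin that associates with laminin-binding integrins, from 109.6 to 187.4. Col17a1, the transmembrane collagen of hemidesmosomes, did not exceed 0.381 CPM, and basal keratin Krt5 did not exceed 0.233 CPM. Its usual partner Krt14 reached 37.3 CPM in KPC850, against 0.729 in KPC180. Krt14 was the only variable gene of the 4 in this list with a mean of at least 1 CPM (25%, near the 20.7% of all genes).

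Itga7, a laminin receptor chain best known from muscle, was at 23.8 CPM in KPC850, 17.9 in KPC490, 15.8 in KPC630, 11.3 in KPC142, 6.26 in KPC469 and 2.25 in KPC180. KPC180 was lowest, and KPC850 was 10.6 times as high (7.54 to 15.2). The muscle markers listed stayed under 1 CPM in all lines, 4 of 4, at or below 0.348 CPM. In the annotation 9 exonic bases of Itga7 overlap Mettl7b on the opposite strand, a gene at up to 12.4 CPM in its highest line, and whether counting used strand is not given in the sources used here. Of 5 other laminin receptors 1 was variable, a share near the 20.7% of all genes. It was Bcam, lowest in KPC469, at 28.6 CPM, and highest in KPC490, at 154.2. Dag1, dystroglycan, lay between 175.0 and 237.4 CPM.

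Collagen-binding integrins pair Itga1, Itga2, Itga10 or Itga11 with Itgb1. Itga2 was at 360.4 CPM in KPC850, 349.9 in KPC490, 252.9 in KPC180, 250.7 in KPC630, 239.7 in KPC142 and 33.4 in KPC469. KPC469 alone was low: the next line, KPC142, was 7.18 times as high, and the whole range was 10.8 times (9.93 to 11.7). Itga1 was at 140.8 CPM in KPC490, 132.6 in KPC180, 114.5 in KPC850, 44.5 in KPC142, 42.3 in KPC630 and 23.7 in KPC469, a ratio of 5.93 (5.35 to 6.58). For that gene KPC180, KPC490 and KPC850 were high, and KPC142 and KPC630 lay nearer to KPC469.

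Itga10, best known from cartilage, was at 11.5 CPM in KPC469, 2.16 in KPC142, 1.64 in KPC180, 1.33 in KPC630, 1.22 in KPC490 and 0.641 in KPC850. Here KPC469 stood above all other lines, at 17.9 times KPC850 (9.82 to 36.5). A gene model on the same strand, Gm42957, shares 1739 exonic bases with it and did not exceed 1.03 CPM. Itga11 did not exceed 0.272 CPM. Summed per kb, the 4 collagen-binding alpha chains came to 9.19 in KPC469 and to 62.3 in KPC490, while the laminin-binding alpha chains came to 404.5 in KPC469 and to 167.2 in KPC142.

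Itgb1, the beta chain that serves all of these, was at 1217 CPM in KPC142, 1119 in KPC180, 952.0 in KPC469, 545.0 in KPC630, 499.6 in KPC490 and 471.0 in KPC850. The lines fell into a higher set of 3 and a lower set of 3, with a ratio of 2.58 from highest to lowest (2.52 to 2.65). Per kb it made up 89.4% of integrin beta chain RNA in KPC142 (89.0% to 89.8%) and 60.1% in KPC850 (59.3% to 60.9%). Itgb1 was 5.19 times Itga3 per kb in KPC142 but 0.561 times Itga3 in KPC630. The genes of its own chromosome, 8, had the same split. Their median deviation from each gene's median over the lines was 0.23, 0.34 and 0.19 log2 units in KPC142, KPC180 and KPC469, and -0.22, -0.22 and -0.25 in KPC490, KPC630 and KPC850, over 695 genes. Subtracting that median left a range of 0.89 log2 units for Itgb1, from 1.37, and its part in the result was not tested. Itgb1 is the only gene of the 22 plotted this way, and the same step narrowed the range of some and widened that of others. For Lama3 the range went from 4.60 to 5.13 log2 units, and for Itga1 from 2.56 to 2.87.

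**Figure D3:**
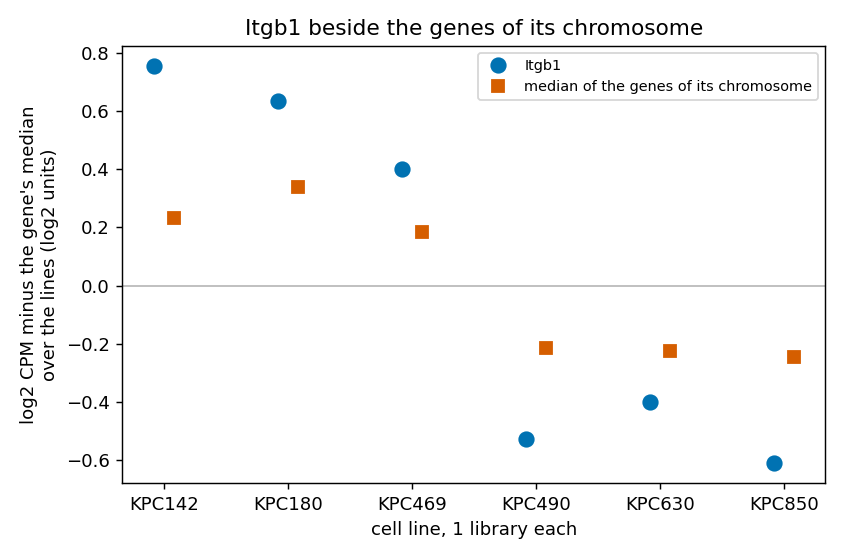
Deviation of log2 CPM from the gene's median over the lines (vertical axis, log2 units) in each line (horizontal axis), for Itgb1 (circles) and for the median of 695 genes on the same chromosome (squares). Both are above 0 in KPC142, KPC180 and KPC469 and below 0 in the other lines, and Itgb1 departs farther from 0.

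Receptors that read the Arg-Gly-Asp motif of fibronectin, vitronectin, osteopontin and latent TGF-beta pair Itgav with Itgb1, Itgb3, Itgb5, Itgb6 or Itgb8, or Itga5 with Itgb1. Itgav was at 212.8 CPM in KPC630, 209.6 in KPC180, 156.0 in KPC490, 138.1 in KPC469, 133.4 in KPC850 and 123.0 in KPC142, a ratio of 1.73 (1.64 to 1.83). Its beta partners varied more. Itgb3 was at 90.8 CPM in KPC850, 79.0 in KPC630, 53.4 in KPC490, 33.5 in KPC142, 21.5 in KPC180 and 18.95 in KPC469. KPC630 and KPC850 were high and KPC180 and KPC469 low, with a ratio of 4.79 (4.26 to 5.398).

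Itgb5, the vitronectin receptor chain, was at 189.1 CPM in KPC469, 108.7 in KPC180, 105.5 in KPC850, 66.6 in KPC630, 63.2 in KPC490 and 58.6 in KPC142. KPC469 was highest, opposite to Itgb3, with a ratio of 3.23 (3.004 to 3.47). Per kb Itgb3 was 0.0569 times Itgb5 in KPC469 and 0.673 times in KPC630, but 0.104 and 1.23 times on coding length. Itgb6, the epithelial chain whose dimer with Itgav activates latent TGF-beta, was at 25.7 CPM in KPC850, 14.4 in KPC142, 7.65 in KPC180, 7.33 in KPC630, 4.59 in KPC490 and 1.25 in KPC469. KPC469 was lowest, on 23 counts, and KPC850 was 20.5 times as high (13.5 to 32.7).

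Itgb8, another activator of latent TGF-beta, was below a mean of 1 CPM but had 35 counts in KPC469 (1.91 CPM) against 1 to 9 counts in the other lines. Between KPC469 and KPC142 the ratio was 31.7, with an interval from 5.34 to 1289. Itga5, the fibronectin receptor alpha chain, was at 37.7 CPM in KPC180, 36.7 in KPC630, 28.1 in KPC490, 24.6 in KPC850, 22.9 in KPC142 and 16.4 in KPC469. Its ratio was 2.30 (2.002 to 2.65), with KPC180 and KPC630 at the top.

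Itga8, the receptor for nephronectin when paired with Itgb1, was detected in 1 line: 110 counts in KPC469 (5.99 CPM) and 0 counts in the other 5. Against a floor of 3 counts per library, KPC469 was at least 32.9-fold higher. Of the 5 fibroblast markers, Pdgfrb was highest in KPC469, at 3.05 CPM. Pdgfra was nearly level in 2 lines, at 2.23 CPM in KPC469 and 2.19 in KPC180. Col1a1 was instead highest in KPC630, at 2.66 CPM against 1.96 in KPC469, and Dcn and Lum were at 0. The part of these markers in the Itga8, Itga10, Itgb8 and Fn1 values of KPC469 was not tested. The mean of Itga8, 0.998 CPM, fell just short of 1, so it is not among the 22 genes. Npnt, the gene for nephronectin, lay between 331.8 and 610.1 CPM and was highest in KPC469.

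Chains that are best known from blood cells were mostly at or near 0. Itgb2, Itgb2l, Itgal, Itgam and Itgax did not exceed 0.691, 0.408, 0.480, 0.121 and 0.243 CPM, and the leukocyte marker list was likewise under 1 CPM. Itga4, Itga9 and Itgae did not exceed 0.581, 0.218 and 0.327 CPM. Itgb7 was an exception, at 31.9 CPM in KPC630, 11.1 in KPC850, 7.27 in KPC142, 4.70 in KPC490, 2.92 in KPC180 and 2.67 in KPC469. KPC630 was highest, at 11.9 times KPC469 (8.92 to 16.3). Its 2 known alpha partners were far scarcer: Itgb7 exceeded Itga4 per kb by 25.0 to 345.8 times and Itgae by 11.7 to 172.0 times. On coding length the first became 8.78 to 121.6 times, and these ratios rest on only 1 to 10 counts of Itga4 and 2 to 6 of Itgae in a library.

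Itga2b, the platelet alpha chain that pairs with Itgb3, was low throughout. It was at 2.29 CPM in KPC630, 2.26 in KPC490, 2.07 in KPC469, 1.80 in KPC142, 0.699 in KPC850 and 0.364 in KPC180. KPC180 and KPC850 were low and the other 4 lay together, with a ratio of 6.27 (2.66 to 18.03). Itga2b counted as variable on 6 counts in KPC180 and 43 in KPC630, and this interval reaches below 4-fold. Of 4 megakaryocyte markers 3 stayed under 1 CPM, and Gp9 was at 0. The other, Ppbp, reached 11.8 CPM in KPC630, and its part in the Itga2b value was not tested.

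Set out as dimers, with the RNA of the scarcer chain per kb taken as the ceiling, the lines shared their leading pairs. These are RNA levels, in which the limiting chain is the one with less RNA, and no dimer was measured. Itga6 with Itgb1 gave 98.1 to 170.4 CPM per kb, limited by Itga6 in 5 lines and by Itgb1 in KPC850. Itga3 with Itgb1 gave 61.4 in KPC142 to 249.5 in KPC469, limited by Itga3 in KPC142 and KPC180 and by Itgb1 in the other 4. Both pairs draw on the same Itgb1, as do the collagen receptors, so these ceilings cannot be added.

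Among the other pairs the spread was wider. Itga2 with Itgb1 gave 4.70 in KPC469 and 50.7 in KPC850. Itga6 with Itgb4 gave 6.76 in KPC180 to 24.5 in KPC850, always limited by Itgb4. Itgav with Itgb3 gave 3.28 in KPC469 to 15.7 in KPC850, always limited by Itgb3, and Itgav with Itgb6 gave 0.261 in KPC469 to 5.35 in KPC850. Itgav with Itgb5 stayed between 17.4 and 29.7, although Itgb5 itself varied, since Itgav was the scarcer chain in KPC469. Pairs of Itgb2 with its leukocyte alpha chains did not exceed 0.0920. Levels per kb depend on the length used. On coding length Itga3 with Itgb1 gave 93.2 to 397.7, Itga2 with Itgb1 9.45 to 102.0, Itgav with Itgb3 8.03 to 38.5 and Itgav with Itgb6 0.531 to 10.9. Itgb5 then also became the scarcer partner of Itgav in KPC142 and KPC180, and the scarcer chain of the Itgb1, Itgb3, Itgb4 and Itgb6 pairs given here was the same in every line.

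**Figure D4:**
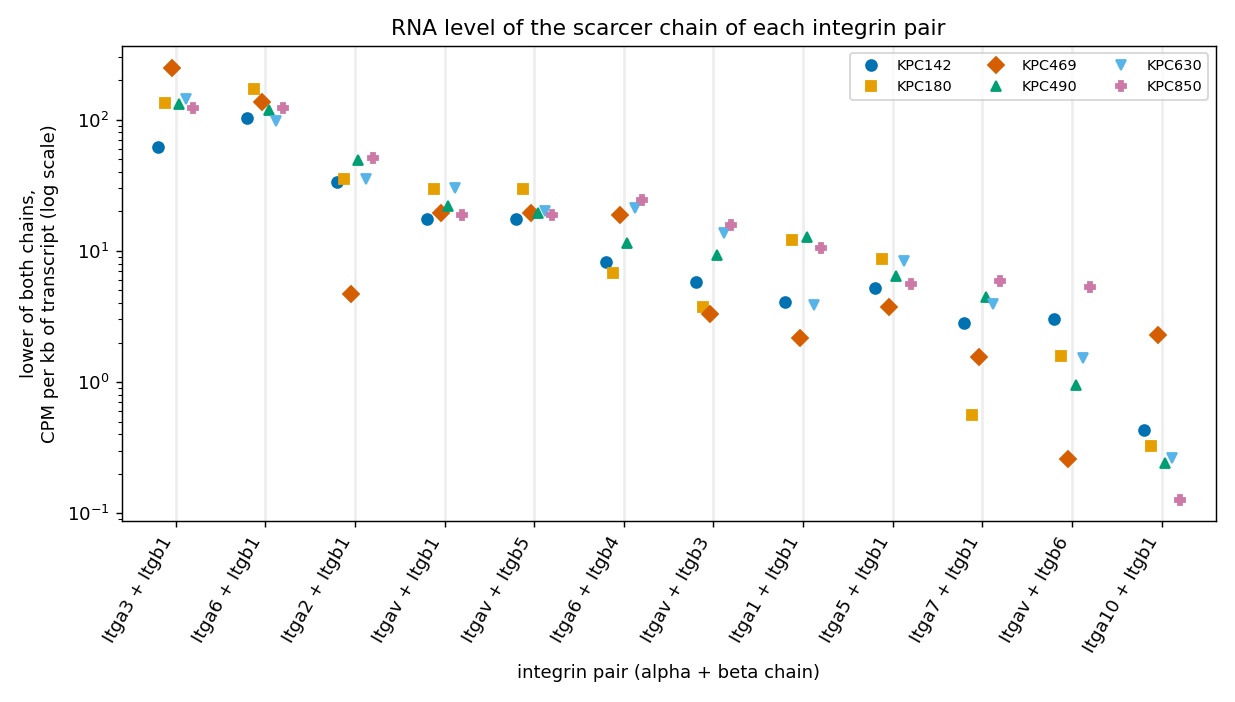
Level of the scarcer chain of each integrin pair in CPM per kb of transcript on a log scale (vertical axis), for 12 alpha and beta pairs (horizontal axis); each symbol is 1 line, with 1 library and no error bar. Itga3 with Itgb1 and Itga6 with Itgb1 lead in every line, and KPC469 is lowest for Itga2 with Itgb1, Itgav with Itgb3 and Itgav with Itgb6.

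Of 20 listed ligands of these integrins, 14 had a mean of at least 1 CPM and 8 were variable (57.1%, against 20.7% of all genes). The 14 had a median range of 2.72 log2 units, against 1.02 for all genes. This list and those below were chosen with earlier results of these data known, so their shares are descriptions only. Thbs1, thrombospondin, was at 633.1 CPM in KPC469, 167.4 in KPC630, 119.9 in KPC180, 50.8 in KPC142, 36.5 in KPC490 and 18.99 in KPC850, a ratio of 33.3 (29.9 to 37.3). KPC469 was highest for it, for Tgfb3 (32.4 CPM against 1.86 in KPC142) and for Edil3 (14.7 against 0.841). Tnc, tenascin, was instead highest in KPC490, at 13.5 CPM, and lowest in KPC142, at 0.480.

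Fn1 and Spp1 are named here after their values were seen, as the ligands of Itga5 and of Itgb3. Fn1, fibronectin, was at 2566 CPM in KPC469, 616.1 in KPC180, 577.5 in KPC630, 464.0 in KPC490, 285.6 in KPC142 and 279.3 in KPC850. Spp1, osteopontin, ran from 809.4 CPM in KPC630 to 8756 in KPC469. KPC469 thus had the highest RNA of both ligands and the lowest RNA of Itga5 and Itgb3, while Itgb5, Itga8 and Itgb8 were at their highest there. Vitronectin, Vtn, had 0 counts in all lines.

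Of 13 basement membrane genes 12 had a mean of at least 1 CPM and 8 were variable (66.7%, against 20.7% of all genes), with a median range of 3.06 log2 units. Nid2, which bridges laminin and collagen IV, was at 26.6 CPM in KPC850 and at 0 counts in KPC142 and KPC469, at least 147.8-fold lower. Its paralog Nid1 ran from 100.5 CPM in KPC469 to 430.9 in KPC630. Col7a1, the anchoring fibril collagen that joins laminin-332, ran from 1.42 CPM in KPC469 to 41.6 in KPC630, the line that was also highest for Lama3. Col4a3 and Col4a5, chains of a collagen IV network, were highest in KPC469, at 8.06 and 108.3 CPM.

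Of 28 listed adaptors that link integrins to actin, 27 had a mean of at least 1 CPM and 8 were variable (29.6%, against 20.7% of all genes), with a median range of 1.27 log2 units. Fermt2, kindlin-2, was at 0.0600 CPM in KPC142, on 1 count, and at 11.01 to 36.3 CPM in the other lines, a ratio of 604.5 with an interval from 108.1 to 23910. Fermt1, the epithelial kindlin, was lowest in KPC469, at 23.7 CPM, and highest in KPC850, at 151.1. Tns1, a tensin, reached 77.5 CPM in KPC180 against 1.68 in KPC142, and Tln2, a talin, reached 74.0 in KPC490 against 2.61 in KPC469. Tgfb1i1 was at 0 in KPC142 and at 2.18 CPM in KPC469, at least 12.1-fold higher. The core adaptors Tln1 and Ilk stayed within 2.53 and 1.49 times from lowest to highest line.

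**Figure D5:**
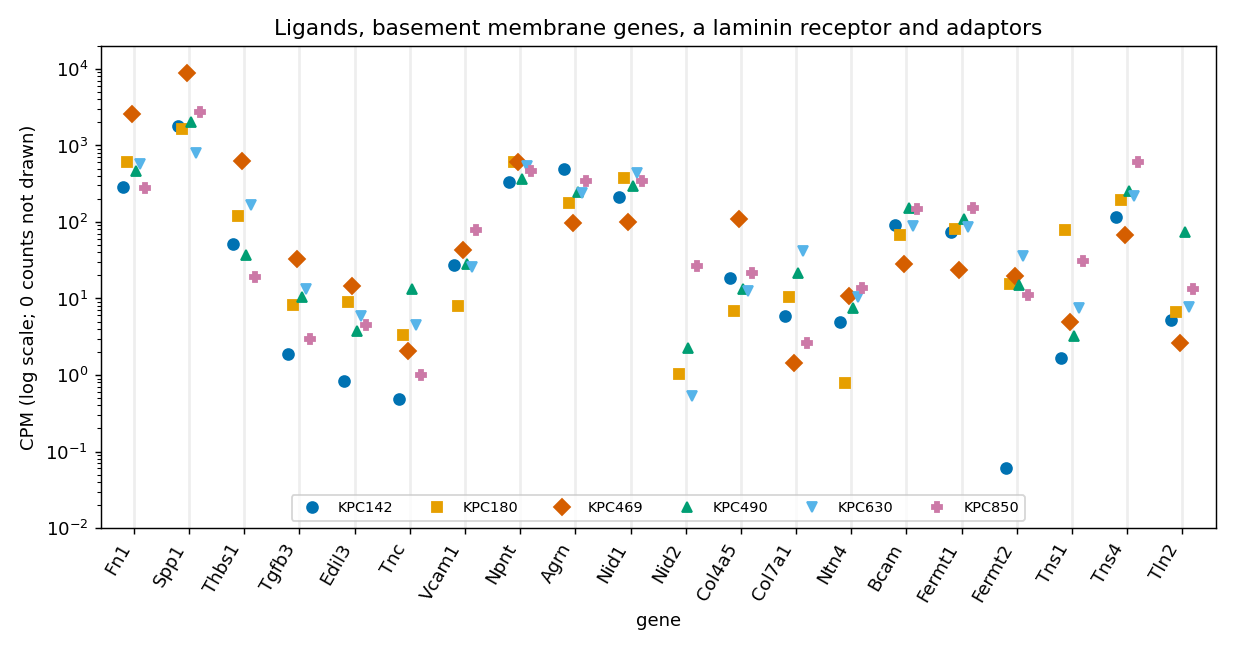
CPM on a log scale (vertical axis) of selected ligand, basement membrane, receptor and adaptor genes (horizontal axis); each symbol is 1 line, with 1 library and no error bar, and values of 0 counts are not drawn. KPC469 is highest for Fn1, Spp1 and Thbs1, and Fermt2 in KPC142 lies at 0.0600 CPM, below all other points.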

How the data were processed

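RNA from 6 KPC lines was sequenced as TruSeq stranded mRNA libraries, 1 per line, per the labels. Tools listed, per the submitters' processing notes, were RSEM 1.3.3, STAR 2.7.10b and Trimmomatic 0.36, with the build GRCm39. The deposited values are the authors' expected counts per gene, in which reads that fit several transcripts or genes are shared by estimate. Between 5.28% and 5.66% of values per library were fractional, with no tolerance, and all were rounded to whole numbers.

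Totals were scaled by TMM factors (edgeR 4.0.16, R 4.3.3, 11531 genes), which ran from 0.985 to 1.01. CPM was computed on the scaled totals, and its log2 used a prior count of 2. Library totals set the precision given by the intervals, which cover counting error only. With 1 library per line and no groups no test was made. Transcript lengths, names and overlaps came from GENCODE vM21 on GRCm38, another build than the authors', so none of its coordinates are printed. The promoter coordinates printed are from RefSeq on GRCm38.p6, which is also not the authors' build. Code for the 4-fold range was tested on simulated data.

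The genes with a mean of at least 1 CPM are named, except 1 that is counted in the totals but not reported here. Of the pathway lists, up to 4 genes of largest range are named, plus those of hemidesmosomes, and others were chosen after their values were seen. The genes and lists were chosen with earlier results of these data known. Alternatives were DESeq2 1.42.0 size factors, plain totals, unrounded counts, other filters, a prior count of 0.5, a 2-fold threshold, coding length or no length, and each line left out.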

Additional observations from a re-analysis of the deposited data

How the results depend on the processing

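Each line is 1 library, so line-specific values have no replicate behind them, and genes below 1 CPM rest on few counts. No paired analysis was possible because each group holds 1 sample and no test was made. The ratios of the 22 genes stayed within their counting intervals in 44 of 44 recomputations with DESeq2 size factors or plain totals. The 12 variable genes became 19 of 36 with no filter (20.3% of all genes), 10 of 20 with filterByExpr (13.2%), 9 of 19 at a mean of at least 5 CPM (13.7%) and 18 of 22 at a 2-fold threshold (51.6%). Leaving out each line in turn gave 8 to 13, against 16.5% to 19.3% of all genes, with 8 without KPC469. With no filter, KPC142, KPC180, KPC469 and KPC490 were highest for 5, 4, 10 and 2 genes and KPC490 was lowest for 1. With filterByExpr, and also at a mean of at least 5 CPM, KPC630 was highest for 3 and KPC180 lowest for 2, and at that mean KPC850 was lowest for 1. By construction these counts cover different genes. The Itgb1 share of beta chains ran from 61.1% to 89.9% on coding length and from 54.97% to 88.0% with no division by length. The Lamb3 share ran from 5.38% to 58.6% on coding length and from 3.50% to 47.6% with no division. On coding length, added after the data were seen, Itgav exceeded Itgb5 in 4 lines in place of 2, Lamc1 exceeded Lama5 in 3 in place of 0, and Itgb3 exceeded Itgb5 in 1 in place of 0.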
